A study of Homo sapiens with 4 samples.

Results

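Valine transfer RNA is covered here by 3 of the 48 tRNA references, those whose name starts with Val-, and by all 228 of their nucleotides that carry a canonical position, 76 in each reference, of 3621 such nucleotides in the series. The references are Val-AAC-1-4, Val-CAC-1-1 and Val-TAC-1-1, named by their anticodon, and 3 of 3 matched a human gene symbol in RefSeq (TRV-AAC1-4, TRV-CAC1-1 and TRV-TAC1-1, assembly GRCh38.p14). None has a nucleotide at position 17 and all have one at position 20a. The study read purified tRNA of HCT116 cells, a human colorectal carcinoma line, by Nano-tRNAseq, in which the native RNA strand passes through a nanopore. There were 2 WT libraries and 2 libraries of HCT116 cells in which the TRMT1 homologue TRMT1L was knocked out (TRMT1L KO, below KO). The series asks which tRNA modifications TRMT1L controls, and its title assigns the enzyme to N2,N2-dimethylguanosine at position 27 of tyrosine tRNA. The labels do not say how the knockout was made, whether it is 1 clone, or whether the libraries are from separate cultures. The p-values here thus reflect the spread between libraries alone, and that spread may be technical. TRMT1L messenger RNA and protein were not measured, so there is no direct check of the knockout. In the tyrosine reference Tyr-GTA-2-1, mismatches at position 26 were 16.9% and 14.8% in WT libraries, against 71.3% and 66.7% in KO libraries. Deletions there were 43.6% and 45.6% in WT libraries, against 9.21% and 9.91% in KO libraries.

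Valine tRNAs read the codons that start with GU, with the AAC anticodon serving after its first base has been deaminated to inosine by ADAT2 and ADAT3. Like other tRNAs they are modified by many enzymes at set positions: TRMT10A methylates position 9, PUS7 makes pseudouridine at position 13, TRMT1 dimethylates guanosine 26, DNMT2 methylates cytosine 38 of a few tRNAs that include Val-AAC, METTL1 with WDR4 methylates guanosine 46, NSUN2 methylates cytosines 48 and 49, and TRMT6 with TRMT61A methylates adenosine 58, each in its own set of tRNAs. A modified base can disturb the nanopore current, also at neighbouring positions, and the base caller then reads a wrong base (mismatch), skips one (deletion) or adds one (insertion).

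The deposited values are the share of reads with each kind of error at each nucleotide of each library, given here as percentages, and their sum is called the summed error. The error does not name a modification or give its stoichiometry. Read depth is not stated, so no counting interval is given. The sheets hold no bases, so a difference of base and a difference of modification between references cannot be told apart. No sequence was among the data used here and none is printed. The summed error averaged over the 76 nucleotides was 30.2% and 30.3% in the WT libraries of Val-AAC-1-4, 29.9% and 29.97% in Val-CAC-1-1 and 30.8% and 30.6% in Val-TAC-1-1, against 30.9% in both WT libraries over all 3621 nucleotides. Of this, mismatches made up 15.3%, 15.4% and 16.9%, deletions 13.05%, 12.6% and 12.1%, and insertions 1.90%, 1.94% and 1.69% of reads, in the order AAC, CAC, TAC.

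**Figure D1:**
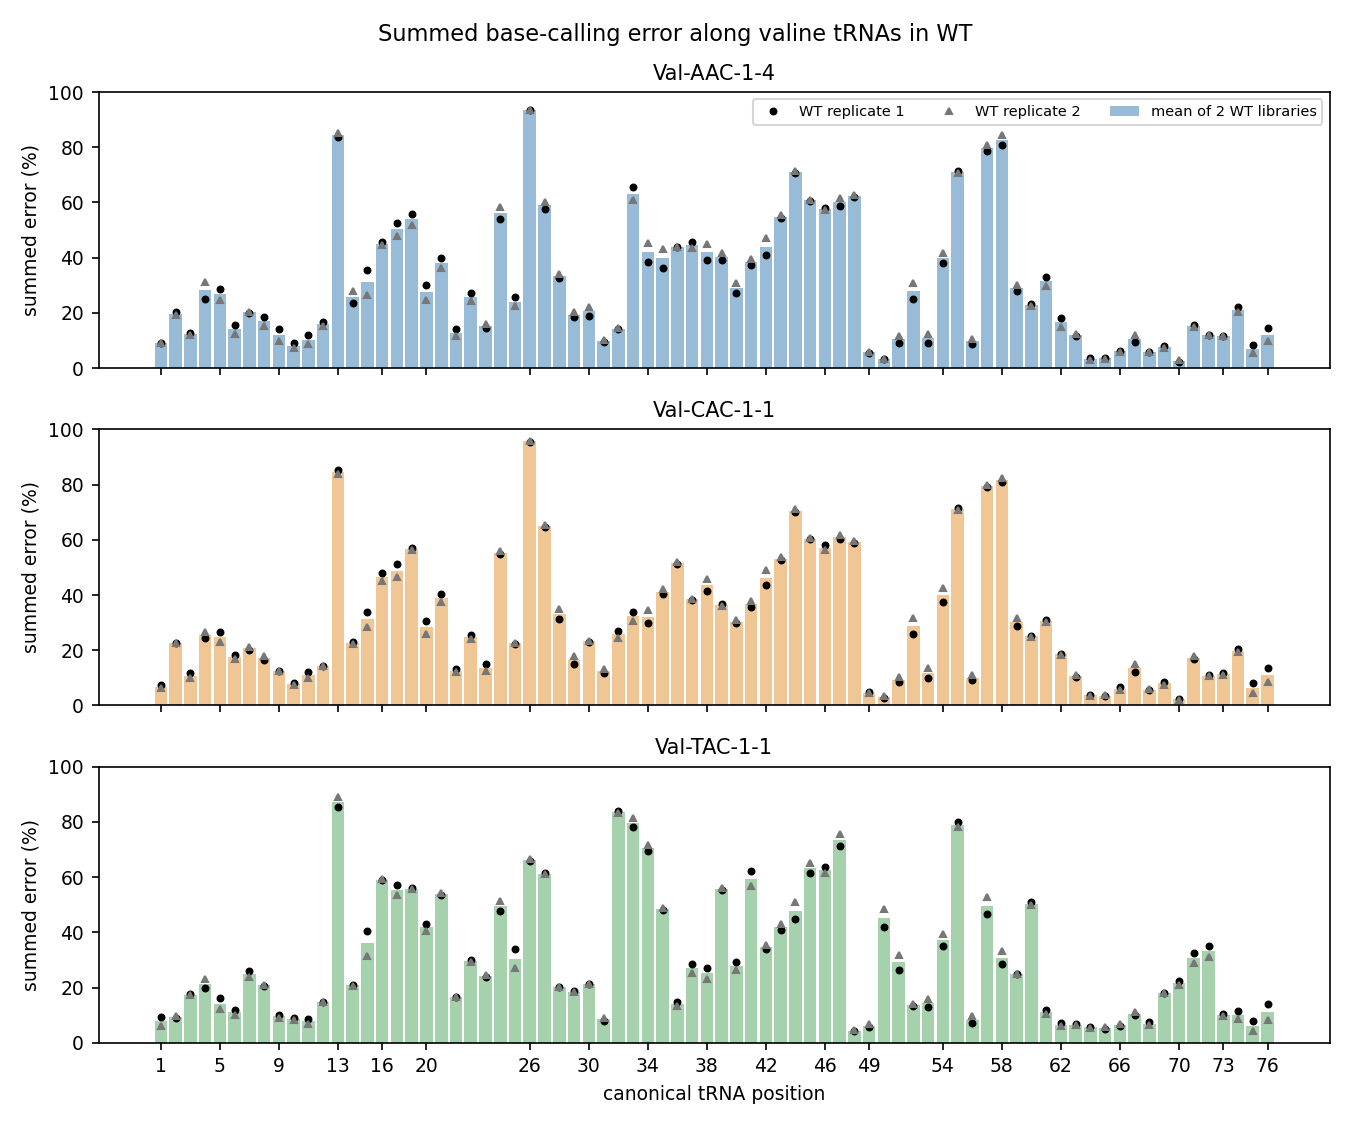
Summed base-calling error (percent of reads, y axis) at each canonical position (x axis) of the 3 valine references in WT, with bars for the mean of 2 libraries and points for each library. The bars of Val-AAC-1-4 and Val-CAC-1-1 are close at most positions, with the widest gap at position 33 (30.9 points). Both peak at position 26 (93.6% and 95.6%), while Val-TAC-1-1 peaks at position 13 (87.2%) and is low at positions 48 and 58.

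In WT the error profiles of Val-AAC-1-4 and Val-CAC-1-1 were close to each other and that of Val-TAC-1-1 was not. The references were compared within each library by limma on differences of the arcsine square root of the error at the same canonical position, with adjustment over the 3611 positions shared by 48 pairs of references of one amino acid. Of these tests 65.6% passed. Between Val-AAC-1-4 and Val-CAC-1-1, 10 of 76 positions passed (13.2%), at positions 6, 26, 27, 31, 32, 33, 34, 36, 37 and 67. Between Val-AAC-1-4 and Val-TAC-1-1, 52 passed (68.4%), and between Val-CAC-1-1 and Val-TAC-1-1, 56 passed (73.7%). The median size of the difference was 1.16 points for AAC and CAC, the lowest but 1 among the 48 pairs, 6.39 points for AAC and TAC and 6.65 points for CAC and TAC, against a median pair of 6.61 points. By mismatch, deletion or insertion alone the AAC and CAC pair had the lowest median of the 48. Reads that could fit both references were not assessed.

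Position 26 was the highest position of Val-AAC-1-4 and Val-CAC-1-1. Its summed error was 93.6% and 93.5% in WT libraries, against 93.3% and 93.9% in KO libraries of Val-AAC-1-4. In Val-CAC-1-1 it was 95.5% and 95.8% in WT libraries, against 93.99% and 95.3% in KO libraries. In Val-TAC-1-1 it was lower, at 65.9% and 66.6% in WT libraries, against 66.05% and 65.7% in KO libraries. Among the 48 references Val-CAC-1-1 ranked first and Val-AAC-1-4 second in WT, Val-TAC-1-1 ranked 22, and the median reference had 60.01%. Mismatches and deletions shared this error: in WT they were 52.6% and 40.7% in AAC, 51.2% and 44.3% in CAC, and 32.9% and 32.9% in TAC. Both kinds were lower in TAC.

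The WT difference at position 26 passed the test between AAC and TAC (27.3 points, limma adjusted p = 1.48e-07) and between CAC and TAC (29.4 points, limma adjusted p = 9.35e-08). Between AAC and CAC it was -2.08 points, limma adjusted p = 0.0281, a call that was lost on untransformed rates and without either WT library. At position 27, the neighbouring site that the series assigns to TRMT1L in tyrosine tRNA, the WT error was 57.8% and 60.01% in AAC, 64.5% and 65.2% in CAC and 61.7% and 60.97% in TAC. The AAC value was below that of CAC (-5.97 points, limma adjusted p = 0.00710).

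At neither position did a difference between genotypes pass the test. At position 26 KO minus WT was 0.0350 points, 95% interval -2.88 to 2.95, limma adjusted p = 0.995, in Val-AAC-1-4. It was -1.003 points, 95% interval -3.92 to 1.92, limma adjusted p = 0.766, in Val-CAC-1-1, and -0.352 points, 95% interval -4.44 to 3.74, limma adjusted p = 0.982, in Val-TAC-1-1. At position 27 the values were 1.89, 0.835 and 1.61 points, with limma adjusted p of 0.857, 0.951 and 0.880. Both KO libraries were above both WT libraries there in each reference, as at 30.9% of all nucleotides. At position 26 of Val-CAC-1-1 both KO libraries were below both WT libraries, as at 7.93% of all. Nor did a kind of error pass at position 26. Mismatches were 52.6% in WT and 52.2% in KO for AAC, 51.2% and 49.7% for CAC, and 32.9% and 32.7% for TAC, with limma adjusted p of 0.996, 0.943 and 0.997. Deletions there differed by 0.516, 0.360 and -1.03 points, with limma adjusted p of 0.953, 0.972 and 0.896.

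**Figure D2:**
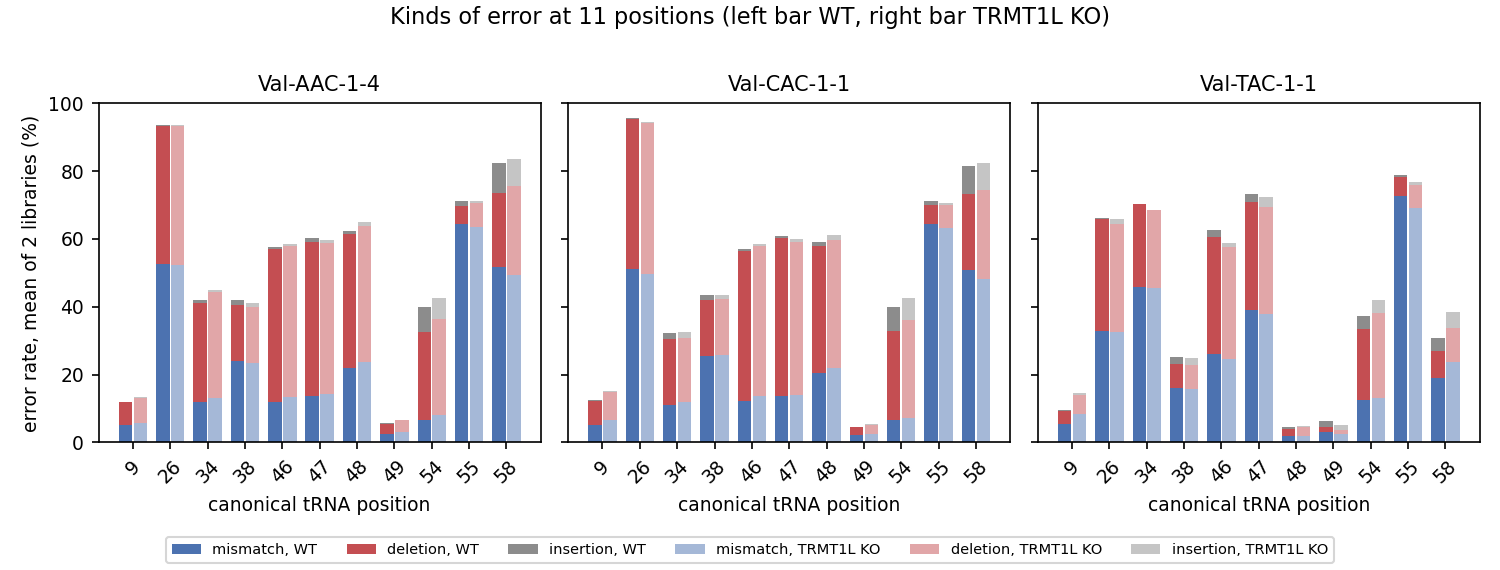
Mean error rate (percent of reads, y axis) at 11 canonical positions (x axis) of each valine reference, stacked by kind, with WT at left and KO at right in each pair, each the mean of 2 libraries. Deletions take the larger part at positions 46 to 48 of Val-AAC-1-4 and Val-CAC-1-1 and mismatches at position 55 of all 3 references, and the WT and KO bars lie close together, with the widest gap at position 58 of Val-TAC-1-1 (30.8% and 38.5%).

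Position 34 is the first base of the anticodon, the adenosine that becomes inosine in Val-AAC. The summed error there was 38.5% and 45.2% in WT libraries, against 42.7% and 47.3% in KO libraries of Val-AAC-1-4. In Val-CAC-1-1 it was 29.9% and 34.5% in WT libraries, against 32.4% and 32.8% in KO libraries. Val-TAC-1-1, whose position 34 is a uridine that carries carbamoylmethyluridine in yeast, had 69.3% and 71.6% in WT libraries, against 68.98% and 68.4% in KO libraries. WT errors thus ordered as TAC, AAC and CAC, each pair past the test (AAC minus CAC 9.68 points, limma adjusted p = 0.000793, AAC minus TAC -28.6 points, limma adjusted p = 1.80e-06, CAC minus TAC -38.3 points, limma adjusted p = 1.09e-07). In WT the AAC error was mostly deletion (29.1%, against 11.9% mismatch), as was that of CAC (19.4% against 11.1%), whereas TAC was mostly mismatch (45.9% against 24.4%).

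Set beside the other references whose anticodon starts with A, Val-AAC-1-4 was the lowest of 9 at position 34. Its WT summed error of 41.9% compared with a median of 52.7% and a highest value of 69.1% in Ser-AGA-2-5. Its mismatches, 11.9%, were also the lowest of the 9, against a median of 29.98% and a highest value of 40.7% in Ala-AGC-8-2. Its deletions, 29.1%, ranked 3 of 9, within a range of 15.9% in Tyr-ATA-1-1 to 33.1% in Ser-AGA-2-5. These ranks are a description with no test. Between genotypes the WT and KO libraries overlapped at position 34 in Val-AAC-1-4 (3.14 points, 95% interval -3.16 to 9.44, limma adjusted p = 0.805) and in Val-CAC-1-1 (0.420 points, 95% interval -4.48 to 5.32, limma adjusted p = 0.980). In Val-TAC-1-1 both KO libraries lay below both WT libraries, by a difference that did not pass (-1.76 points, 95% interval -5.84 to 2.32, limma adjusted p = 0.851).

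**Figure D3:**
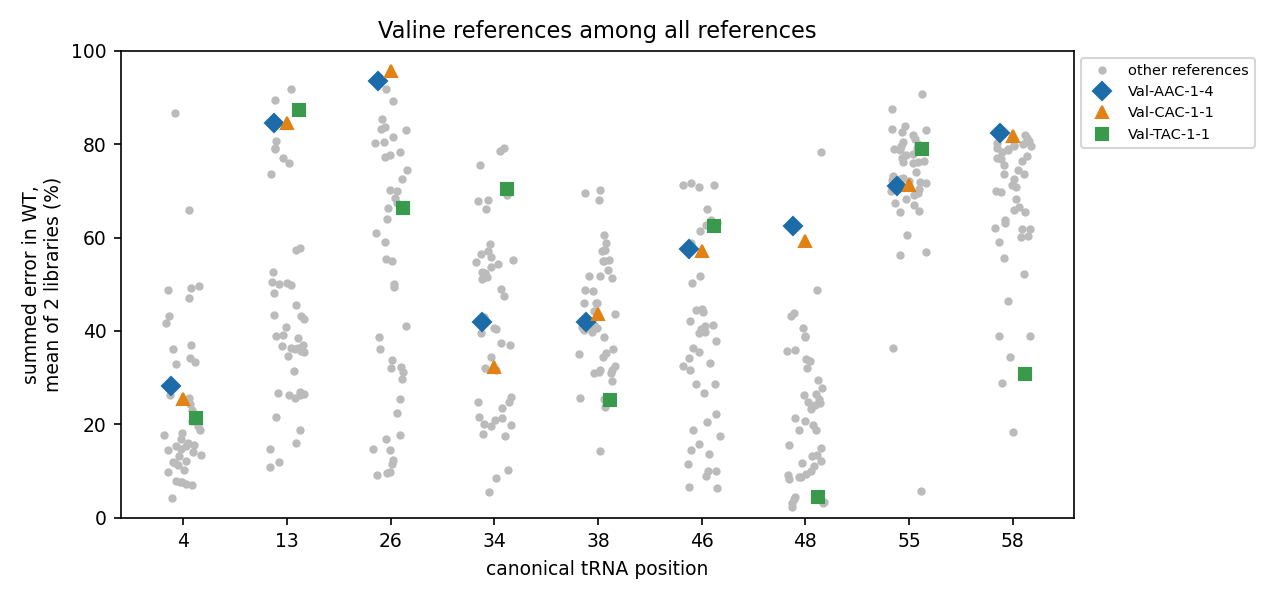
Mean summed error of 2 WT libraries (percent, y axis) at 9 canonical positions (x axis) in all references that have the position, with the 3 valine references in colour. Val-AAC-1-4 and Val-CAC-1-1 top the references at position 26 and stand near the top at positions 48 and 58, where Val-TAC-1-1 is near the bottom.

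The rest of the anticodon loop set the references further apart. At position 33, the uridine that precedes the anticodon in most tRNAs, WT errors were 65.7% and 60.8% in AAC, 33.9% and 30.8% in CAC and 78.03% and 81.4% in TAC. The gap between AAC and CAC, 30.9 points, limma adjusted p = 7.86e-07, was the widest of their 76 positions, and deletions held most of it (35.5% against 12.8%). At position 32, which FTSJ1 methylates on the ribose in several tRNAs, WT errors were 14.3% and 14.4% in AAC, 26.98% and 24.6% in CAC and 83.8% and 83.2% in TAC, and AAC lay below TAC (-69.2 points, limma adjusted p = 7.43e-09). Positions 32 and 33 of Val-TAC-1-1, with position 13, were its 3 highest in WT. The KO values at positions 32 and 33 were within 3.41 points of WT in all 3 references, the widest in Val-AAC-1-4 at position 33 (-3.41 points, 95% interval -8.53 to 1.70, limma adjusted p = 0.710).

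Position 38, which DNMT2 methylates in Val-AAC as well as in Asp-GTC and Gly-GCC, had similar errors in Val-AAC-1-4 and Val-CAC-1-1. The summed error was 39.2% and 44.8% in WT libraries, against 40.6% and 41.7% in KO libraries of Val-AAC-1-4. It was 41.5% and 45.7% in WT libraries, against 42.9% and 44.1% in KO libraries of Val-CAC-1-1. Val-TAC-1-1 had 27.3% and 23.1% in WT libraries, against 23.1% and 26.8% in KO libraries. In WT the AAC and CAC references were not shown to differ (-1.61 points, limma adjusted p = 0.387), and both were above TAC (16.8 points, limma adjusted p = 0.000175 for AAC, 18.4 points, limma adjusted p = 6.05e-05 for CAC). The other DNMT2 substrates had 57.3% in Asp-GTC-2-6 and 54.9% in Gly-GCC-2-1, mostly as deletions (37.9% and 41.7%), while Val-AAC-1-4 had more mismatch (23.9%) than deletion (16.7%). In WT summed error at position 38 Val-AAC-1-4 ranked 24 of 48 references, close to the median reference at 41.6%. KO minus WT was -0.883, -0.142 and -0.240 points in AAC, CAC and TAC, with limma adjusted p of 0.968, 0.995 and 0.989, and the libraries of both genotypes overlapped in each.

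In the variable region the 3 references lay above the median reference at positions 46 and 47 and split at position 48. In WT the ranks of AAC, CAC and TAC were 13, 14 and 9 of 48 at position 46, with a median reference at 39.7%. They were 14, 11 and 4 of 30 at position 47, where AAC and CAC were near the median reference of 58.9%. At position 46, where METTL1 acts in many tRNAs, the summed error was 58.02% and 57.2% in WT and 59.2% and 57.6% in KO for Val-AAC-1-4. Val-CAC-1-1 had 57.97% and 56.2% in WT and 58.4% and 58.8% in KO. There both KO libraries were above both WT libraries, without passing the test. It was 63.6% and 61.6% in WT and 57.8% and 59.97% in KO for Val-TAC-1-1, where both KO libraries were below both WT libraries without passing the test (-3.70 points, 95% interval -8.26 to 0.859, limma adjusted p = 0.644). Deletions formed most of it in AAC and CAC (44.98% and 44.5% in WT) and less in TAC (34.6%, beside 26.05% mismatch). WT errors were below TAC in AAC (-4.99 points, limma adjusted p = 0.0244) and in CAC (-5.48 points, limma adjusted p = 0.0116), calls that were lost without either WT library. At position 47, a dihydrouridine site in many tRNAs, WT errors were 58.9% and 61.5% in AAC, 60.2% and 61.8% in CAC and 71.3% and 75.5% in TAC, and KO minus WT was -0.532, -1.07 and -1.08 points (limma adjusted p of 0.972, 0.936 and 0.949).

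Position 48, where NSUN2 acts in many tRNAs, had one of the highest errors of all references in Val-AAC-1-4 and Val-CAC-1-1 and one of the lowest in Val-TAC-1-1. It was 62.1% and 62.9% in WT and 65.5% and 64.7% in KO for AAC. For CAC it was 58.8% and 59.7% in WT and 60.4% and 62.02% in KO. For TAC it was 4.13% and 4.70% in WT and 5.19% and 4.32% in KO, with overlapping libraries. Their WT ranks were 2, 3 and 42 of 48, and the gap between AAC and TAC was 58.1 points, limma adjusted p = 8.82e-09. Deletions were the larger kind in AAC and CAC (39.3% and 37.6%, against 22.1% and 20.4% mismatch). In AAC and CAC both KO libraries were above both WT libraries at position 48, by 2.60 points, 95% interval -1.61 to 6.81, limma adjusted p = 0.756, and by 1.97 points, 95% interval -2.46 to 6.39, limma adjusted p = 0.845. Position 49, where NSUN2 also acts, was low in all 3 references, from 3.96% to 6.91% over the 12 library values, and KO minus WT was 1.04, 0.760 and -1.21 points (limma adjusted p of 0.754, 0.805 and 0.747).

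The T arm carries ribothymidine at position 54, pseudouridine at position 55 and 1-methyladenosine at position 58 in most tRNAs. At position 54 Val-AAC-1-4 had 38.2% and 41.8% in WT and 41.5% and 43.996% in KO. Val-CAC-1-1 had 37.5% and 42.5% in WT and 41.8% and 43.6% in KO. Val-TAC-1-1 had 35.1% and 39.5% in WT and 39.997% and 44.2% in KO. The genotypes did not overlap in TAC, where the lower KO library stood just above the higher WT library, and overlapped in AAC and CAC. Deletions were its main kind (25.97%, 26.2% and 21.2% in WT), with insertions besides (7.54%, 7.10% and 3.76%). The KO mean was higher in each reference, by 2.70, 2.73 and 4.75 points, and none passed (limma adjusted p of 0.804, 0.805 and 0.592). At position 55 AAC had 71.4% and 70.8% in WT and 71.3% and 71.05% in KO. CAC had 71.6% and 70.9% in WT and 70.8% and 70.5% in KO. TAC was higher, with 79.9% and 78.1% in WT and 76.003% and 77.5% in KO. Both KO libraries were below both WT libraries in CAC and TAC and overlapped them in AAC. Nearly all of this error was mismatch (64.5%, 64.3% and 72.7% in WT). KO minus WT at position 55 was 0.0553, -0.623 and -2.27 points, with limma adjusted p of 0.997, 0.968 and 0.752.

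Position 58 separated Val-TAC-1-1 from the other valine references. Val-AAC-1-4 had 80.6% and 84.4% in WT libraries, against 83.4% and 83.6% in KO libraries. Val-CAC-1-1 had 81.02% and 82.3% in WT libraries, against 82.4% and 82.3% in KO libraries. Val-TAC-1-1 had 28.4% and 33.1% in WT libraries, against 38.2% and 38.7% in KO libraries. In WT these ranked 1, 3 and 46 of 48, with a median reference at 71.1%, and AAC exceeded TAC by 51.7 points, limma adjusted p = 1.55e-08. The WT error of AAC comprised 51.7% mismatch, 21.96% deletion and 8.83% insertion, and that of TAC 18.9%, 8.25% and 3.68%. At position 57 WT errors were 78.6% and 80.97% in AAC, 79.02% and 79.8% in CAC and 46.6% and 52.6% in TAC.

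The widest genotype differences of the T arm lay at these positions of Val-TAC-1-1, and they did not pass the test. At position 58 both KO libraries were above both WT libraries in TAC (7.68 points, 95% interval 2.62 to 12.7, limma adjusted p = 0.285), while in AAC and CAC the summed KO values were within or close to the WT range (0.976 and 0.647 points, limma adjusted p = 0.922 and 0.949). By kind, deletions at position 58 were higher in KO by 4.02 points in AAC and 3.71 points in CAC. These ranked 2 and 3 of 48 references, whose median was 1.27 points. Mismatches there differed by -2.19 and -2.55 points, with a median of -0.739 points over all references. None of these passed. With 1 library left out the deletion differences ran from 2.42 to 5.62 points in AAC and from 1.76 to 5.66 points in CAC. At position 57 TAC had 46.6% and 52.6% in WT and 57.5% and 60.7% in KO, again without overlap (9.48 points, 95% interval 3.77 to 15.2, limma adjusted p = 0.237), and mismatches held most of that difference (41.1% in WT, 49.2% in KO, with limma adjusted p = 0.246). Among the 48 references the TAC difference was the highest at each of the 2 positions. The genotype difference of AAC minus that of TAC was -6.70 points, limma adjusted p = 0.651, at position 58 and -7.46 points, limma adjusted p = 0.742, at position 57, so the references were not shown to respond differently. Without WT replicate 2 the TAC differences were 12.5 points at position 57 and 10.01 points at position 58. The lowest differences with 1 library left out were 6.46 and 5.34 points, both without WT replicate 1.

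Position 9, a purine methylated in many tRNAs, had a low error in every valine library, unlike most of the sites above. Val-AAC-1-4 had 14.2% and 9.75% in WT and 12.6% and 14.4% in KO at position 9. Val-CAC-1-1 had 12.5% and 12.4% in WT and 14.8% and 15.7% in KO there. Val-TAC-1-1 had 10.2% and 8.85% in WT and 16.5% and 12.8% in KO. The KO libraries lay above the WT libraries in CAC (2.84 points, 95% interval 0.0877 to 5.59, limma adjusted p = 0.534) and in TAC (5.10 points, 95% interval 1.89 to 8.30, limma adjusted p = 0.257) and overlapped them in AAC (1.53 points, 95% interval -2.05 to 5.11, limma adjusted p = 0.840). The neighbouring position 10 had 9.13% and 8.43% in WT and 16.4% and 12.5% in KO for TAC (5.67 points, 95% interval 2.52 to 8.83, limma adjusted p = 0.185). In TAC the value of KO replicate 1 was the higher at both positions. Without KO replicate 2 the TAC differences were 6.92 points at position 9 and 7.60 points at position 10. Without KO replicate 1 they were 3.27 and 3.75 points.

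Over all 228 valine nucleotides, 0 passed the test of KO against WT in the summed error, where 0.608% of all 3621 did. The test was limma on the arcsine square root of the error with Benjamini-Hochberg adjustment over the 3621 nucleotides and a threshold of 0.05. None passed by mismatch, deletion or insertion alone, where 0.552%, 1.19% and 0.0829% of all nucleotides passed. At an unadjusted p under 0.05 there were 30 valine nucleotides by summed error (13.2%, of them 28 with the higher mean in KO), against 9.36% of all. By kind there were 19 by mismatch (8.33%, against 6.99% of all), 29 by deletion (12.7%, against 11.4%) and 16 by insertion (7.02%, against 5.69%). The lowest adjusted p of the 228 was 0.115 for the summed error, 0.187 for mismatch, 0.120 for deletion and 0.646 for insertion. The 95% intervals of the differences reached a median of 3.82 points to each side, from 1.35 to 6.61 points, and 2 libraries a genotype cannot show differences within them. Each interval is for a single nucleotide and is not adjusted for the 3621 tested, so one that leaves out 0 is not a call. Fits with 1 library left out keep a single library of 1 genotype, so the spread of that genotype does not enter them. For genotype differences only the effect sizes of those fits are given. An exact two-sided permutation test of a single value can give no p below 0.333 here.

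The KO mean was above the WT mean at 171 of the 228 nucleotides (75%), against 70.04% of all 3621, with a median difference of 0.963 points in valine and 0.818 points over all. Once each library was centred on its median error, which took off 1.27 points, the valine median was -0.303 points, that of all nucleotides was -0.448 points, and 40.8% of valine nucleotides stood higher in KO against 39.9% of all. The direction of this small offset therefore depends on the scaling, in valine as in the whole table. Both KO libraries exceeded both WT libraries at 80 valine nucleotides (35.1%, against 30.9% of all) and were both below them at 18 (7.89%, against 7.93%). Averaged over its 76 nucleotides, Val-TAC-1-1 had 30.8% and 30.6% in WT and 32.1% and 32.2% in KO. Val-AAC-1-4 had 30.99% and 31.5% in KO and Val-CAC-1-1 30.7% and 31.2%, each above its WT libraries (exact permutation p = 0.333 for each of the 3). Of the 30 nucleotides at an unadjusted p under 0.05, 5 were in AAC, 10 in CAC and 15 in TAC. Tested directly with limma, 0 positions passed for a genotype effect that differed between valine references in any of the 4 measures, where 0.0277% of the 3611 tests over all pairs passed by summed error, mismatch or deletion and 0.0% by insertion. At an unadjusted p under 0.05 each pair had 0 to 6 positions in a measure.

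**Figure D4:**
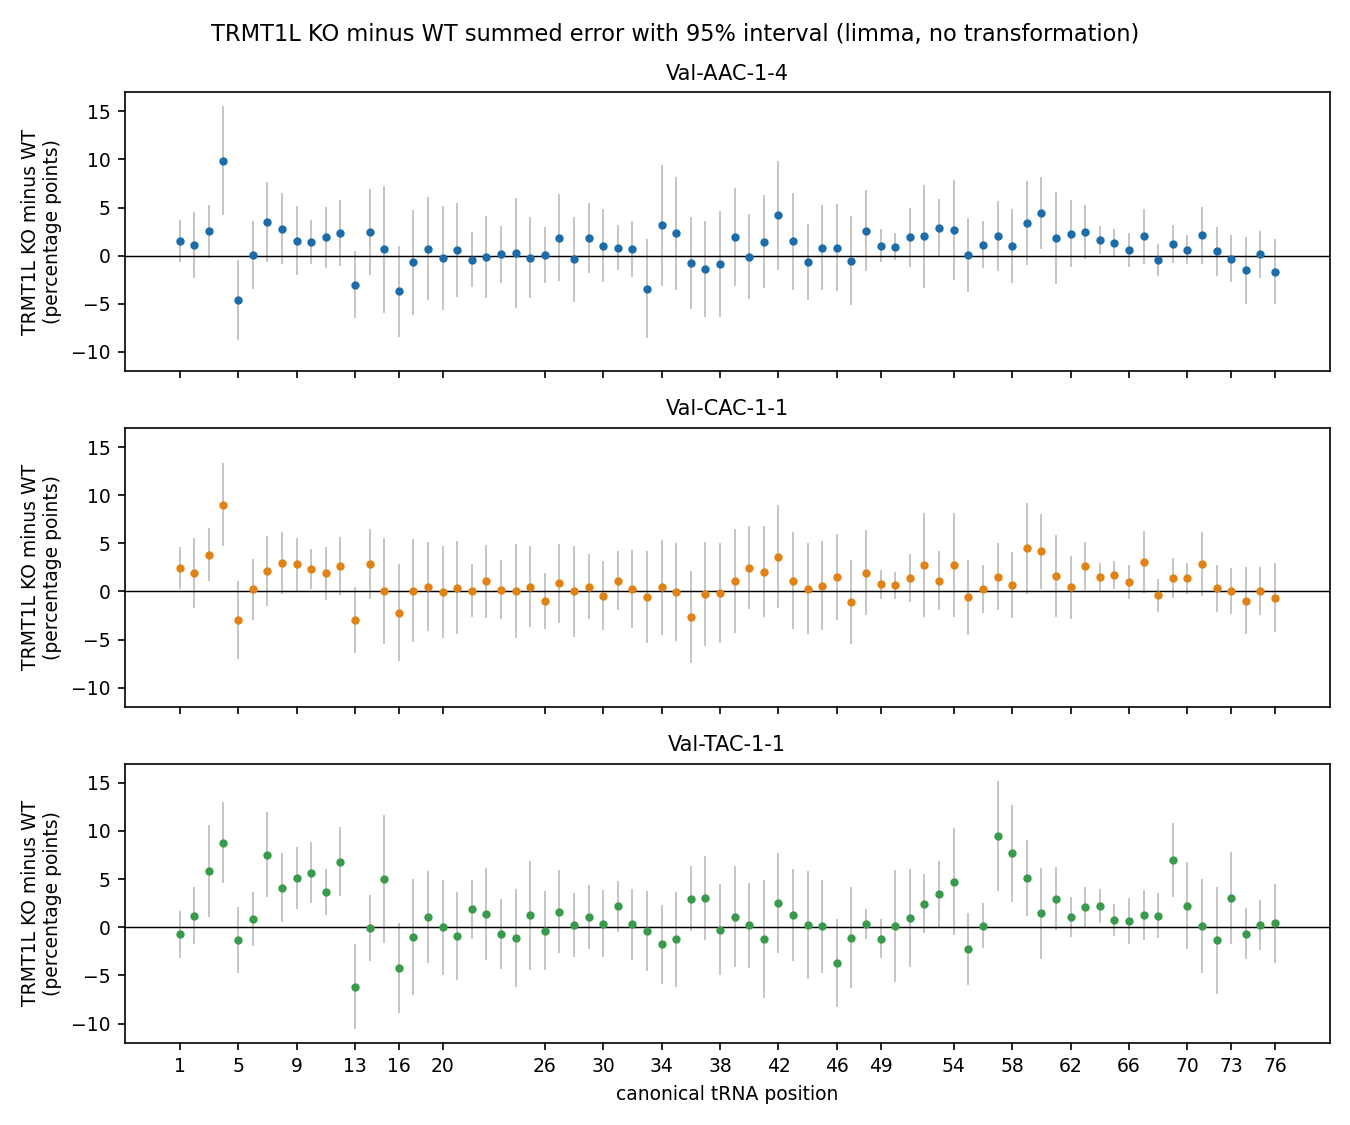
TRMT1L KO minus WT difference of the summed error (percentage points, y axis) at each canonical position (x axis) of the 3 valine references, with points for the difference of means of 2 libraries and bars for the 95% interval of a limma fit on untransformed rates. The highest points are at position 4 in Val-AAC-1-4 and Val-CAC-1-1 and at positions 57 and 4 in Val-TAC-1-1, and position 13 is lowest in Val-TAC-1-1.

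Position 4, in the acceptor stem, held the largest genotype difference of Val-AAC-1-4 and of Val-CAC-1-1 and the second largest of Val-TAC-1-1. The summed error at position 4 was 24.95% and 31.4% in WT libraries, against 36.7% and 39.4% in KO libraries of Val-AAC-1-4 (9.88 points, 95% interval 4.25 to 15.5, limma adjusted p = 0.202). It was 24.3% and 26.6% in WT libraries, against 33.99% and 34.9% in KO libraries of Val-CAC-1-1 (9.01 points, 95% interval 4.71 to 13.3, limma adjusted p = 0.115). It was 19.7% and 23.2% in WT libraries, against 30.6% and 29.9% in KO libraries of Val-TAC-1-1 (8.80 points, 95% interval 4.60 to 12.998, limma adjusted p = 0.115). In each reference both KO libraries were above both WT libraries. These were the 3 highest differences at position 4 among the 48 references. Mismatches differed by 6.52, 5.07 and 4.09 points in AAC, CAC and TAC, and insertions by 3.90, 4.33 and 3.41 points, with deletions at -0.540, -0.395 and 1.29 points. None passed (lowest limma adjusted p 0.241 for mismatch, and 0.743 for insertion). Without WT replicate 2 the differences of the summed error at position 4 were 13.1, 10.1 and 10.6 points in AAC, CAC and TAC. Over the 4 fits that each left out 1 library these summed differences ran from 6.68 to 13.1 points in AAC, 7.89 to 10.1 in CAC and 7.04 to 10.6 in TAC. The mismatch difference of AAC ran from 3.92 points without KO replicate 2 to 9.11 points without KO replicate 1. The insertion difference of CAC ran from 2.82 to 5.84 points. Since AAC and CAC may share reads, their values may not be separate observations.

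At the next nucleotide, position 5, the KO mean was lower. In Val-AAC-1-4 the summed error was 28.6% and 24.8% in WT libraries, against 22.3% and 21.9% in KO libraries (-4.62 points, 95% interval -8.77 to -0.470, limma adjusted p = 0.495). Deletions held nearly all of it, at 17.4% and 14.5% in WT and 11.6% and 11.7% in KO (-4.29 points, 95% interval -7.06 to -1.51, limma adjusted p = 0.170). This deletion difference was -5.74 points without WT replicate 2 and -2.83 points without WT replicate 1. In Val-CAC-1-1 and Val-TAC-1-1 the deletion differences at position 5 were -2.38 and -1.63 points (limma adjusted p = 0.507 and 0.620).

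Position 13, in the D arm, where PUS7 acts in several tRNAs, was among the highest errors in all 3 references and had the lower mean in KO. It was 83.5% and 85.3% in WT libraries, against 81.7% and 81.1% in KO libraries of Val-AAC-1-4. It was 85.3% and 83.8% in WT libraries, against 81.8% and 81.4% in KO libraries of Val-CAC-1-1. Val-TAC-1-1 had 85.4% and 89.05% in WT libraries, against 78.8% and 83.3% in KO libraries. Within each reference both KO libraries were below both WT libraries. The WT ranks were 5, 4 and 3 of 48, with a median reference at 40.02%, and mismatch made up most of the error (71.8%, 74.3% and 74.9%). KO minus WT was -3.01 points, 95% interval -6.47 to 0.444, limma adjusted p = 0.564, in AAC. It was -2.96 points, 95% interval -6.37 to 0.446, limma adjusted p = 0.564, in CAC and -6.17 points, 95% interval -10.6 to -1.74, limma adjusted p = 0.291, in TAC. By mismatch alone it was -3.80, -4.99 and -5.996 points (limma adjusted p of 0.723, 0.511 and 0.511). From the highest, the differences of the summed error ranked 46, 45 and 48 of 48 references. In TAC the summed difference was -7.98 points without WT replicate 1 and -8.41 points without KO replicate 2. It was -4.37 points without WT replicate 2 and -3.93 points without KO replicate 1.

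By region, 0 nucleotides passed the test in any of 8 lists of positions in valine. Over all references 10 of 288 passed in the D loop, 3 of 96 at positions 26 and 27, 1 of 816 in the T arm, 1 of 672 in the acceptor stem and 0 in the other 4 lists. In the T arm, positions 49 to 65, the KO mean was higher at 48 of 51 valine nucleotides, with a mean of 25.7% and 27.1% in WT and of 28.6% and 28.2% in KO. Those 48 were 94.1% of the list, against 76.3% of the T arms of all references (623 of 816). Since AAC and CAC may share reads and neighbouring nucleotides come from the same reads, nucleotides in these lists are not separate observations. Here 12 nucleotides had an unadjusted p under 0.05 (23.5%), against 79 of 816 over all references (9.68%). The mean difference was 2.01 points in valine and 1.27 points over the T arms of all references. In the acceptor stem it was higher at 35 of 42, by 1.90 points, against 1.24 points over all references, and 10 had an unadjusted p under 0.05, 1 of them lower. Over all references the acceptor stem was higher in KO at 493 of 672 nucleotides (73.4%, against 83.3% in valine), and 76 had such a p (11.3%, against 23.8%). At positions 8 to 10 it was higher at 9 of 9, by 3.20 points, against 0.979 points over all references, and 5 had an unadjusted p under 0.05. Over all references 112 of 144 were higher there (77.8%) and 16 had such a p (11.1%). The anticodon loop (-0.0309 points over 21 nucleotides), the variable region (0.145 points over 15), the D loop (-0.450 points over 18), positions 26 and 27 (0.503 points over 6) and the 3' end (-0.148 points over 12) had 0 nucleotides at an unadjusted p under 0.05. The D loop holds dihydrouridine in most tRNAs, and its widest valine difference was at position 16 of Val-TAC-1-1, with 58.9% and 59.4% in WT and 53.4% and 56.4% in KO (-4.24 points, 95% interval -8.93 to 0.443, limma adjusted p = 0.585). By deletion, Val-TAC-1-1 had the largest valine rises at positions 7 (4.12 points) and 54 (4.04 points), and a fall at position 60 (-2.93 points). Its summed difference at position 7 was 7.52 points, the highest of 48 references there. Insertions at position 57 differed by -1.88 points in Val-CAC-1-1 and -1.21 points in Val-AAC-1-4. None of these passed. Over the 33 values at the 11 positions described first, differences of the summed error ran from -3.70 to 7.68 points (median 0.420), and 20 were above 0. For mismatch they ran from -3.51 to 4.93 points (median 0.383) and for deletion from -1.57 to 4.04 points (median 0.516). For insertion they ran from -1.15 to 1.03 points (median -0.0646). None passed by kind, with a lowest limma adjusted p of 0.396, 0.219 and 0.646 in that order.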

How the data were processed

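Base-calling errors of tRNA were measured by Nano-tRNAseq in HCT116 cells, with 2 WT and 2 TRMT1L KO libraries. The authors deposited them, per the file headers, as a fraction from 0 to 1 for mismatch, deletion and insertion in each library, 12 sheets in all, with 48 references in rows and 90 nucleotides in columns, and 1 sheet that maps nucleotides to canonical positions. The nucleotide numbers in the header row led most of these columns to be recorded under the unit other, but all their deposited values are the same kind of fraction. The tools named in the submitters' processing notes are BWA, SAMtools and bedtools. Tool versions, base caller, read filters, depth, genome build and the treatment of reads matching more than 1 reference are not given in the sources used. The precision is therefore known only from the spread between libraries.

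Groups were taken from the genotype label. The 3 kinds of error were added to a summed error. The arcsine square root of each rate was fitted in R 4.3.3 by limma 3.58.1 (lmFit, then eBayes with trend and robust), without a replicate block, over all 3621 numbered nucleotides, with Benjamini-Hochberg adjustment and a threshold of 0.05. Intervals come from the same fit on untransformed rates and are not adjusted for the number of nucleotides tested. References were compared by limma on within-library differences, with the variance moderated over the positions of all pairs. Python 3.11.15 with pandas 2.3.3, numpy 2.4.6, scipy 1.17.1 and matplotlib 3.10.9 served for the rest. The fits were also run on simulated data with the same noise level for all nucleotides of a measure, and the outcome is not given here.

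The positions named were 9, 26, 34, 38, 46 to 49, 54, 55 and 58, the 3 highest WT errors of each reference, and the 3 largest differences each way in each measure. Of the last, the deletion fall at position 16 of Val-TAC-1-1 and the insertion fall at position 36 of Val-CAC-1-1 are not given by value. Positions 5, 7, 10, 16, 24, 27, 32, 33, 44, 50 and 57 given in other comparisons or measures than these were chosen after their values were seen. The members, the lists and the tests were chosen with earlier results of these data known. Alternatives were other transformations, variance models, filters and nucleotides tested, centring of libraries, leaving out insertions, a replicate block and leaving out each library. Deviations of same-numbered libraries from their group means correlated at -0.251 over the 3621 summed errors, so the numbers were not taken to pair the libraries.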

Additional observations from a re-analysis of the deposited data

How the results depend on the processing

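Over the genotype and reference comparisons together, 95 of 109 counts under other settings stayed within 1.5 times the value reported, so that a reported 0 stayed 0, and 14 were higher. Most of those 14 were counts of valine nucleotides that passed the genotype test, for which the report had 0 in each measure. The settings with such higher counts follow by measure. For the summed error, leaving out 1 library gave 0 to 8 calls. For mismatch they were the replicate block (1 passed, position 10 of Val-TAC-1-1) and leaving out 1 library (0 to 6). For deletion they were the filter on low error (1, position 5 of Val-AAC-1-4), leaving off the first and last 10 nucleotides (2) and leaving out 1 library (0 to 1). For insertion leaving out 1 library gave 0. The difference of the genotype effect between references had 0 to 2 deletion calls when 1 library was left out. Pairing the libraries the crossed way, WT replicate 1 with KO replicate 2, was added after seeing the data and gave 8 calls by summed error, 1 by mismatch and 1 by insertion. The replicate block changed no other count of valine calls. Of 892 values at single positions under other settings, 842 kept their direction and side of the threshold, 14 passed anew, 7 no longer passed and 29 changed sign. With each library centred on its median, KO minus WT turned to -1.23, -0.431, -0.223, -1.21 and -0.290 points at positions 26, 46, 49, 55 and 58 of Val-AAC-1-4, to -0.846, -0.506 and -0.620 points at positions 34, 49 and 58 of Val-CAC-1-1, and to -0.926 points at position 48 of Val-TAC-1-1. Without insertions position 38 of Val-CAC-1-1 turned to 0.0817 points. The other changes of sign came from leaving out 1 library, with KO minus WT over the 4 fits as follows, in points. Val-AAC-1-4 ran from -0.704 to 3.76 at position 9, -0.220 to 0.290 at position 26, -0.187 to 6.46 at position 34, -3.70 to 1.94 at position 38, -1.87 to 0.802 at position 47, -0.244 to 0.354 at position 55 and -0.894 to 2.85 at position 58. Val-CAC-1-1 ran from -1.85 to 2.69 at position 34, -2.24 to 1.96 at position 38 and -0.0142 to 1.31 at position 58. Val-TAC-1-1 ran from -2.32 to 1.84 at position 38, -3.90 to 1.73 at position 47 and -0.0969 to 0.778 at position 48. None of these values passed in the report, and the cause was not tested. Read depth is unknown, so what it limits cannot be given.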

Other observations

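Several positions outside the sites above also set the valine references apart from each other or from other references in WT. At position 24, in the stem of the D arm, the 3 references ranked 1, 2 and 3 of 48, with 56.1% in Val-AAC-1-4, 55.3% in Val-CAC-1-1 and 49.7% in Val-TAC-1-1. Deletions held most of this error, with 43.7%, 43.2% and 30.3%. At position 44, where the variable region starts, Val-AAC-1-4 had 71.1% and Val-CAC-1-1 70.5%, while Val-TAC-1-1 had 47.9%. At position 50, in the stem of the T arm, the order was the other way, with 3.21%, 3.15% and 45.1%, and 33.4% of reads of Val-TAC-1-1 had a mismatch there. These positions were chosen after their values were seen and are given with no test.

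Each valine reference has 14 further nucleotides without a canonical position, taken here to be adaptor beyond the tRNA end. Their mean summed error in Val-AAC-1-4 was 26.7% and 23.1% in WT and 22.4% and 24.9% in KO. It was 26.1% and 22.3% against 22.02% and 24.6% for Val-CAC-1-1, and 25.7% and 22.2% against 21.9% and 24.1% for Val-TAC-1-1. The genotypes overlapped in each (exact permutation p = 0.667).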
